A study of Mus musculus with 5 samples.

Results

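The fast-twitch sarcomere genes described here are 10 genes that encode the contractile filaments of fast skeletal muscle fibres: Acta1, Tnni2, Tnnt3, Tnnc2, Mylpf, Myl1, Myh1, Myh2, Myh4 and Actn3. They were measured in whole mouse lung, among 12393 genes in all. The list was selected on muscle identity and on intensities of these same arrays, in which skeletal muscle genes stood out in the induced BMPR2delx4+ pool, so the members' calls below are a description and support nothing. A probe set, the array's group of short oligonucleotides for 1 transcript, was taken for a member where the platform annotation gave that gene alone. There were 14 such probe sets of the 22626 on the array, none of a member's probe sets was shared with another gene, and the one with the highest mean intensity stood for its gene.

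Each of 5 conditions was hybridised to 1 array of pooled whole-lung RNA, and the number of animals in a pool is not given. The induced pool came from SM22-tet-BMPR2delx4+ mice on doxycycline (dox) and had a right ventricular pressure of 50 ± 8 mmHg. By name, these mice carry a mutant form of the bone morphogenetic protein receptor BMPR2 under doxycycline (tet) control. The SM22 promoter in the name is active in smooth muscle. Hypoxia for 4 weeks, in FVB/N animals 8 weeks old, gave the other elevated-pressure pool, also at 50 ± 8 mmHg. Pressures were 30 ± 3 mmHg in the other 3 pools, here called normal-pressure pools: SM22-tet-BMPR2delx4+ mice without doxycycline, SM22-rtTA mice on doxycycline, which carry the doxycycline-dependent activator by name and no BMPR2delx4+, and wild-type FVB/N mice aged 8 weeks. For the 3 transgenic pools the titles state 8 weeks, which could be age or treatment time; their strain and the kind of error on the pressures are not in the labels. With 1 array per condition nothing was replicated, so the differences below are untested.

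The sarcomere is the contractile unit of striated muscle. Thin filaments of skeletal actin carry the troponin complex, in which troponin C binds calcium, troponin I holds contraction off and troponin T ties the complex to tropomyosin; thick filaments are built of myosin heavy chains, each with an essential and a regulatory light chain, and alpha-actinin anchors the thin filaments at the Z-disc. Fast fibres and slow fibres use different genes for most of these parts, and fast fibres are divided further by their heavy chain into IIa (Myh2), IIx (Myh1) and IIb (Myh4). Skeletal muscle is no part of lung parenchyma, while airways and vessels hold smooth muscle and, in mice, cardiac muscle sheathes the pulmonary veins.

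The promoters of 5 members are printed because these genes span the range of patterns described below: Acta1, the actin of the thin filament; Mylpf and Myh1, which follow the pattern of the members most closely; and Myh2 and Myh4, the neighbours of Myh1 that do not share its difference in hypoxia. Each run is the 250 bases before the gene's start, 5′ to 3′ on the gene's strand, from RefSeq on GRCm38.p6, and 7 of the 10 members matched an entry. Capitals mark matches, on either strand, to the TATA box (TATAAA), the MCAT box (CATTCC), the MEF2 box or the CArG box; the windows of Mylpf and Myh2 hold none of these.
Acta1 (chr8:123894776-123895025, minus strand): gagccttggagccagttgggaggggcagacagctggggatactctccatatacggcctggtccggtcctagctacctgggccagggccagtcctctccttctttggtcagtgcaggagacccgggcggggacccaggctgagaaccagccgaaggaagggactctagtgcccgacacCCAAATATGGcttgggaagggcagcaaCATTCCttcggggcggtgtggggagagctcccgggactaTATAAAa
Mylpf (chr7:127211358-127211607, plus strand): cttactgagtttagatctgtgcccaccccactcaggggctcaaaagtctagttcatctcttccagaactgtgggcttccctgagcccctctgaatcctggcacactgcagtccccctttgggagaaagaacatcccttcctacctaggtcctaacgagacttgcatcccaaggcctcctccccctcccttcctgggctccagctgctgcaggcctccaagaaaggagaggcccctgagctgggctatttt
Myh2 (chr11:67170777-67171026, plus strand): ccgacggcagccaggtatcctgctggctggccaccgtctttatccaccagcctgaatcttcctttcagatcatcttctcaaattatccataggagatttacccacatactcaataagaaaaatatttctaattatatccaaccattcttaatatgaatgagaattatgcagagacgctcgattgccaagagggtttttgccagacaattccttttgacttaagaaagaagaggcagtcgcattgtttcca
Myh1 (chr11:67199852-67200101, plus strand): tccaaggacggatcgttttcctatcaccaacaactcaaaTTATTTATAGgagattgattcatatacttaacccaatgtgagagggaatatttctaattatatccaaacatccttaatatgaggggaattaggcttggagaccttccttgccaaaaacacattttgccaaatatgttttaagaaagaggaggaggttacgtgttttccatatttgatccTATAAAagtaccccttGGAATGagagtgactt
Myh4 (chr11:67237562-67237811, plus strand): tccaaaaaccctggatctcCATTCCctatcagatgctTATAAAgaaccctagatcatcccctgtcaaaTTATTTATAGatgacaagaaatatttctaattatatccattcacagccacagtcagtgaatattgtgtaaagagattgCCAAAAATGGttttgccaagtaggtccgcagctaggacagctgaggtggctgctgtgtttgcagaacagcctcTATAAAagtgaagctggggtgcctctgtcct

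In these 250 bases, the TATA box was found in 4 of the 7 members, the MCAT box in 4, and the MEF2 box and the CArG box in 2 each. Over 32536 promoter windows of the same length, the shares with a match were 12.3%, 12.6%, 2.89% and 1.48% in that order. The CArG box, the site known to bind serum response factor, was in Acta1 and Myh4. The MEF2 box, named for the myocyte enhancer factors, was in Myh1 and Myh4, in both overlapping a TATA match on the other strand. The E-box CANNTG, bound by myogenic factors, was in 5 of the 7 and in 66.2% of all windows. A match is a string of letters and not a shown binding site. Myh2, Myh1 and Myh4 lie next to each other in that order on chromosome 11, between Myh3 and Myh8.

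Intensities below are scaled so that the arrays share a common centre, and values under 276, the median of all scaled values, were treated as noise: such a value is given as read, has no order among others, and enters a ratio at 276, so the ratio is then a lower bound. Genes that exceeded 276 in any pool, 8597 of the 12393, count as measured. The matched control was BMPR2delx4+ without dox for the induced pool and wild type for the hypoxic pool. To be called higher, a gene had to exceed this control by 1.5-fold or more, exceed 276, and exceed all 3 normal-pressure pools; the mirror case was called lower. All 12 lung epithelial and endothelial marker genes were above 276 in every pool, with surfactant protein C (Sftpc) at 10705 (induced), 11858 (hypoxia), 11529 (BMPR2delx4+ without dox), 11161 (SM22-rtTA) and 13366 (wild type). The wild-type pool stood apart from the other normal-pressure pools: over the 5894 genes above 276 in all pools, the SD of its log2 ratio was 0.63 against BMPR2delx4+ without dox and 0.62 against SM22-rtTA, whereas SM22-rtTA against BMPR2delx4+ without dox gave 0.34. Medians in hypoxia, and some single values that shift, are therefore also given against the mean of both transgenic normal-pressure pools. Other hypoxic ratios and calls use wild type as the control unless another is named.

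All 10 members had their highest value in the induced pool, and all 10 were called higher there than in BMPR2delx4+ without dox. The background was 3.3% of the measured genes called higher and 1.33% called lower, and since the members were chosen for this difference, nothing is read from their count. Their median log2 ratio was at least 3.98, about at least 15.8-fold, against 0.00 over all measured genes, and single members ran between 0.71 (Myh4) and bounds of up to at least 4.55. In hypoxia 7 of the 10 were called higher than in wild type, where 4.23% of measured genes were called higher and 4.82% lower, and none of the 10 was called lower. The median log2 ratio of the members in hypoxia was at least 1.81, with 0.03 over all measured genes. With SM22-rtTA as the control it was also at least 1.81, and with the mean of both transgenic normal-pressure pools at least 1.72. Myh2 and Actn3, under the floor in hypoxia and in these controls, have no ratio and entered these medians at 0.00. The size of the median against wild type depends on the floor and on the choice of probe set. It was 0.81 with the floor at the 70th percentile and 1.24 with the mean of each gene's probe sets. In bulk tissue, more fibres of a type and more RNA per fibre cannot be told apart.

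**Figure D1:**
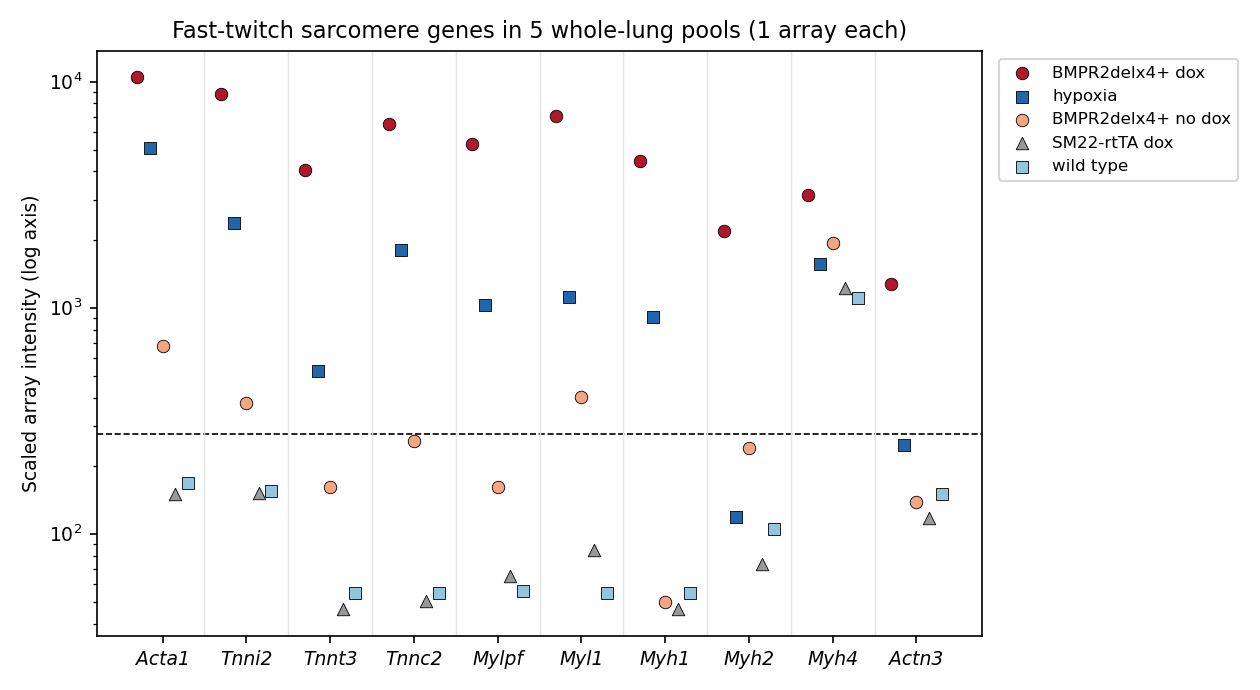
Scaled intensity (log axis) of the 10 fast-twitch sarcomere genes in each of the 5 pools, 1 array per pool; the dashed line is the noise floor of 276. Every gene is highest in the induced BMPR2delx4+ pool, 7 genes are called higher in hypoxia, and Myh4 is above the floor in all 5 pools.

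Among thin-filament genes, skeletal actin Acta1 was at 10435 in the induced pool, 5064 in hypoxia, 677 in BMPR2delx4+ without dox, 149.7 in SM22-rtTA and 167 in wild type. It was 15.4-fold higher after induction, or at least 37.8-fold against SM22-rtTA on doxycycline, and at least 18.3-fold higher in hypoxia. Its level in the induced pool was near the top of the scale, where the highest probe set read 11445 and 9 probe sets, Acta1 included, lay at or above 10435, and what this does to its ratios was not tested. Against BMPR2delx4+ without dox in place of wild type, Acta1 in hypoxia was 7.48-fold higher.

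The 3 fast troponins were higher in both elevated-pressure pools. Calcium-binding Tnnc2 read 6493 (induced), 1799 (hypoxia), 257 (BMPR2delx4+ without dox), 50.4 (SM22-rtTA) and 54.8 (wild type). Its ratios were at least 23.5-fold and at least 6.51-fold, with no normal-pressure pool above the floor. The inhibitory subunit Tnni2 read 8769.9, 2367, 379, 152 and 154 in the same pool order, 23.1-fold higher after induction and at least 8.57-fold higher in hypoxia. Tropomyosin-binding Tnnt3 read 4065, 522, 161, 46.4 and 54.8. Its hypoxic value was the lowest of the 7 called members relative to the floor: at least 14.7-fold after induction, and at least 1.89-fold in hypoxia, under 2-fold because the floor replaces the control value.

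Both fast myosin light chains were highest in the induced pool and above the floor in hypoxia. The regulatory chain Mylpf read 5278 in the induced pool, 1032 in hypoxia, 161 in BMPR2delx4+ without dox, 65.2 in SM22-rtTA and 55.5 in wild type. It was at least 19.1-fold higher after induction and at least 3.74-fold higher in hypoxia. The essential chain Myl1 read 7038, 1117, 403, 84.3 and 54.8, which is 17.5-fold after induction and at least 4.04-fold in hypoxia. For Myl1 the BMPR2delx4+ pool without dox was above the floor and the other normal-pressure pools were not, so the hypoxic value was 2.77-fold above that pool.

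The 3 fast heavy chains did not follow a single pattern. Myh1 (IIx) read 4466 in the induced pool, 914 in hypoxia, 50.1 in BMPR2delx4+ without dox, 46.4 in SM22-rtTA and 54.8 in wild type, and all 3 normal-pressure values were at or near the lower limit of the deposited data. It was at least 16.2-fold higher after induction and at least 3.31-fold higher in hypoxia. Myh2 (IIa) read 2190.4, 118, 238, 73.5 and 104.7: it was above the floor in the induced pool alone, at least 7.93-fold higher there, and has no ratio in hypoxia, where the pool and its control were both under the floor. Myh4 (IIb) read 3147, 1554, 1929.8, 1221 and 1108, above the floor in all 5 pools. Its ratio after induction was 1.63-fold, which passes 1.5-fold but not 2-fold, and was 2.58-fold against SM22-rtTA on doxycycline. It was 1.40-fold in hypoxia, which is not a call; the hypoxic pool lay 0.805-fold relative to BMPR2delx4+ without dox. The 1 probe set for Myh4 was thus the member least like the others.

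Actn3, the alpha-actinin that cross-links thin filaments at the Z-disc of fast fibres, read 1266 in the induced pool, 247 in hypoxia, 138 in BMPR2delx4+ without dox, 117 in SM22-rtTA and 150.3 in wild type. It was at least 4.58-fold higher after induction. In hypoxia it was under the floor, as was wild type, so no ratio is given. With the floor lowered to the limit of the deposited values, a scaled intensity of 54.8 and a setting chosen after seeing the data, Actn3 was 1.64-fold above wild type and passed as higher; Myh2 was 1.13-fold above it and did not.

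Other probe sets of the same genes exist for Tnni2 and Myh1. Both other Tnni2 probe sets were highest in the induced pool. One read 7489 there and 1492 in hypoxia, and the other 919 and 155, with the last value under the floor. The log2 ratios after induction were at least 4.76 and at least 1.73. In hypoxia the first was at least 2.43, and for the second both pools were under the floor. Of the other Myh1 probe sets, one read 3351 in the induced pool and 775 in hypoxia and at most 85.1 elsewhere, with ratios of at least 12.1-fold and at least 2.81-fold. The last Myh1 probe set was under the floor in all 5 pools, at 77.7 in the induced pool and 146 in hypoxia. It does not show the difference. The heavy chain genes are close relatives, so probe sets for one may also read another; this was not tested.

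The normal-pressure pools were not alike for these genes. BMPR2delx4+ without dox had 4 of the 10 members above the floor, Acta1, Tnni2, Myl1 and Myh4, and each of these was higher there than in the other normal-pressure pools. In SM22-rtTA and in wild type, Myh4 was the member above the floor and the other 9 were under it. Myh4, above the floor in every pool, was 1.58-fold higher in BMPR2delx4+ without dox than in SM22-rtTA and 1.74-fold higher than in wild type. The remaining 6 members were under the floor in all normal-pressure pools and cannot be ordered there. The summed scaled intensity of the 10 members was 53148 in the induced pool, 14735 in hypoxia, 4396 in BMPR2delx4+ without dox, 2006 in SM22-rtTA and 1959 in wild type.

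Set directly against each other, the induced pool exceeded the hypoxic pool for all 10 members, by between 2.02-fold (Myh4) and at least 7.93-fold (Myh2). The hypoxic value as a share of the induced one was unequal across members. It was 49.4% for Myh4, 48.5% for Acta1, 27.7% for Tnnc2 and 27.0% for Tnni2. Lower shares were found for Myh1 (20.5%), Mylpf (19.6%), Myl1 (15.9%) and Tnnt3 (12.9%), and those of Actn3 and Myh2 were at most 21.8% and at most 12.6%. The members thus do not scale by 1 common factor between these arrays, with Acta1 near the top of the scale in the induced pool and Myh4 high in all pools.

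**Figure D2:**
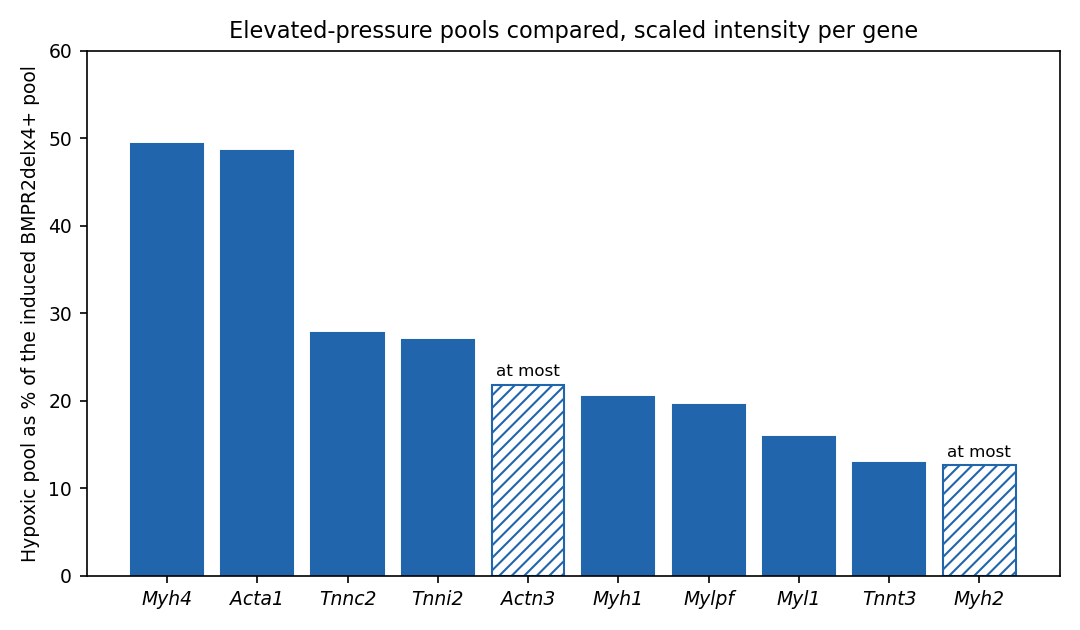
Scaled intensity of the hypoxic pool as a percentage of the induced BMPR2delx4+ pool for each of the 10 genes, 1 array per pool; hatched bars are upper bounds, where the hypoxic pool was under the noise floor. Shares run between at most 12.6% (Myh2) and 49.4% (Myh4).

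Isoforms of the same protein families were set beside the members. Of the 6 actins, Acta1 was called higher in both comparisons, cardiac actin Actc1 (6004 in the induced pool against 3616 without dox) and enteric smooth muscle actin Actg2 (1609 against 1019.5) after induction, and none other; vascular smooth muscle actin Acta2 had log2 ratios of 0.11 after induction and 0.46 in hypoxia, the second turning to -0.19 against the transgenic mean. Cytoplasmic Actb and Actg1 had log2 ratios between -0.17 and -0.10 in both. Among alpha-actinins, Actn2, shared by heart and all skeletal fibres, was at 2139 against 219, at least 7.74-fold after induction, and at 296 against 183 in hypoxia, a bound that is not a call. The non-muscle Actn1 and Actn4 had log2 ratios of -0.01 and -0.23 after induction.

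All 8 troponin genes were called higher after induction and the 3 fast ones in hypoxia. Slow troponins were at 2191 against 882 (Tnnc1, shared with heart), 591 against 47.7 (Tnni1) and 755 against 78.1 (Tnnt1) after induction. The cardiac Tnni3 was at 2287 against 787 and Tnnt2 at 3695 against 1339. In hypoxia, Tnnc1 (504 against 693), Tnni3 (460.0 against 635) and Tnnt2 (1241 against 1477) were below wild type without being called, and Tnni1 and Tnnt1 were under the floor in both pools. Fast and slow or cardiac troponins were therefore higher together in the induced pool, and the hypoxic pool had the fast ones alone among those called.

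The heavy chain Myh8, known as the perinatal form, was at 2834 in the induced pool, 535 in hypoxia and at or near the deposited limit in the 3 normal-pressure pools (46.4 to 54.8), at least 10.3-fold and at least 1.94-fold higher. Slow Myh7 was at 541 against 252 after induction and 299 against 164 in hypoxia. The cardiac Myh6 was at 3935 against 1253 after induction and at 933 against 1325 in hypoxia. The embryonic Myh3 was under the floor in all pools. Among light chains, Myl3, of slow fibres and ventricle, was at 5127 against 673 after induction and 1785 against 772 in hypoxia and was called higher in both. Ventricular and slow Myl2 (776 against 124) and the atrial Myl4 (4589 against 1723) and Myl7 (4056 against 1868) were called after induction, and in hypoxia Myl2 was under the floor in both pools, with Myl4 at 1668 against 1917 and Myl7 at 1390.1 against 1794. Smooth and non-muscle Myl6 and Myl9 had log2 ratios of 0.17 and 0.29 after induction, and the heavy chains Myh9, Myh11 and Myh14 of such cells gave no call in either comparison.

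**Figure D3:**
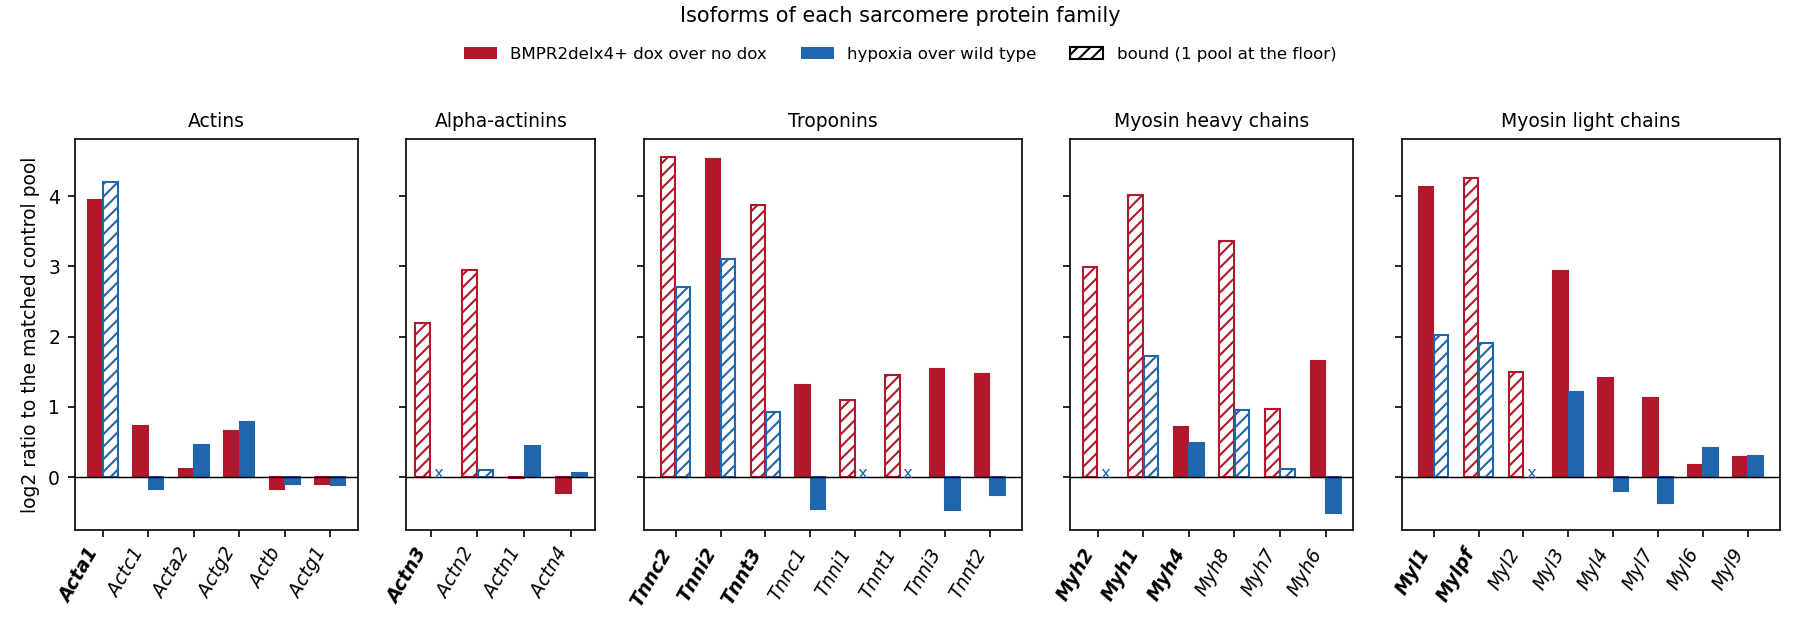
Log2 ratio of the induced BMPR2delx4+ pool over the pool without doxycycline (red) and of the hypoxic pool over wild type (blue) for the isoforms of 5 protein families, with the fast-twitch members in bold; 1 array per pool, hatched bars are bounds with 1 pool at the noise floor and x marks pools both at the floor. Fast troponins and light chains have bars in both comparisons, and the slow and cardiac troponins have positive bars after induction. In hypoxia Tnnc1, Tnni3 and Tnnt2 have bars below 0, and Tnni1 and Tnnt1 have an x and no ratio.

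Other lists of muscle genes were set beside the members by counts and medians. Of 7 measured other fast-fibre genes, 7 were called higher after induction (median log2 ratio 2.48) and 2 in hypoxia (0.20): Atp2a1, the fast calcium pump, at 4798 against 324 and 715 against 185, and Eno3, muscle enolase, at 4392 against 288 and 738 against 315. The calcium buffer parvalbumin (Pvalb) was at 2045 against 293 after induction, and at 284 against 764 in hypoxia, a log2 ratio of -1.43 that was -0.00 against the transgenic mean. Pgam2, the muscle phosphoglycerate mutase, was at 1815 against 325 after induction and at 564 against 584 in hypoxia, where it was 1.88-fold higher than the transgenic mean. Slow-twitch sarcomere genes were called in 7 of 8 after induction (median 1.38) and in 1 of 8 in hypoxia (0.01), heart muscle genes in 7 of 10 (0.93) and 0 of 10 (-0.23). Z-disc, M-band and giant filament genes were higher in 15 of 16 (median 2.40) and 3 of 16 (0.03), where those called in hypoxia were Myom1, Csrp3 and Nrap; titin (Ttn), the spring that spans the sarcomere, was at 3093 against 209 after induction and 235 against 296 in hypoxia, and myotilin (Myot) at 2417 against 65.6 and 255 against 92.8. Muscle calcium and energy genes gave 14 of 17 higher (2.07) and 4 of 17 (0.12), among them creatine kinase Ckm at 10428 against 799 and 2590.1 against 575, and myoglobin Mb at 7891 against 1052 and 2410.3 against 1174. Fabp3 was the 1 gene of these lists called lower, in hypoxia, at 456 against 1582; its log2 ratio there of -1.79 was -0.71 against the transgenic mean. Against that mean, the hypoxic medians were 0.57 for the other fast-fibre genes, 0.00 for the slow-twitch genes, -0.14 for the heart genes, 0.00 for the Z-disc list and 0.38 for the calcium and energy genes. Myom1, Csrp3 and Nrap in hypoxia were 1.46-fold, 1.59-fold and 1.80-fold above the transgenic mean, which leaves Myom1 under 1.5-fold. Genes above the floor in the induced pool alone count as measured only through that pool, which favours the counts after induction. In hypoxia such genes have no ratio and enter the list medians at 0.00. Among them are Ldb3, Myot, Myom2, Lmod2, Tmod4, Xirp1 and Smyd1 of the Z-disc list and Myl2, Tnni1 and Tnnt1 of the slow-twitch list. Some genes stand in more than 1 list, and all lists were drawn up with earlier results of these data known.

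Genes of muscle formation and innervation were mostly below the floor. The regulators Myod1, Myog, Myf5 and Myf6 and the satellite cell genes Pax7 and Cdh15 were under 276 in every pool. Mef2c, which other cells also express, was called higher in both comparisons. It was at 1231 against 432 after induction and at 557 against 294 in hypoxia, which was 1.34-fold above the transgenic mean. Pax3 was at 355 in hypoxia and 354 in wild type, under the floor in the other pools, and was not called. Of 6 neuromuscular junction genes on the array, Chrna1, Chrne, Musk and Rapsn were under the floor in every pool, and Chrnb1 and Chrnd were not called. The smooth muscle list had 1 of 12 called after induction, Actg2, and 0 of 12 in hypoxia, with medians of 0.17 after induction and 0.35 in hypoxia; with SM22-rtTA as the control these became 0.59 and 0.10, and the hypoxic median was -0.09 against the transgenic mean.

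**Figure D4:**
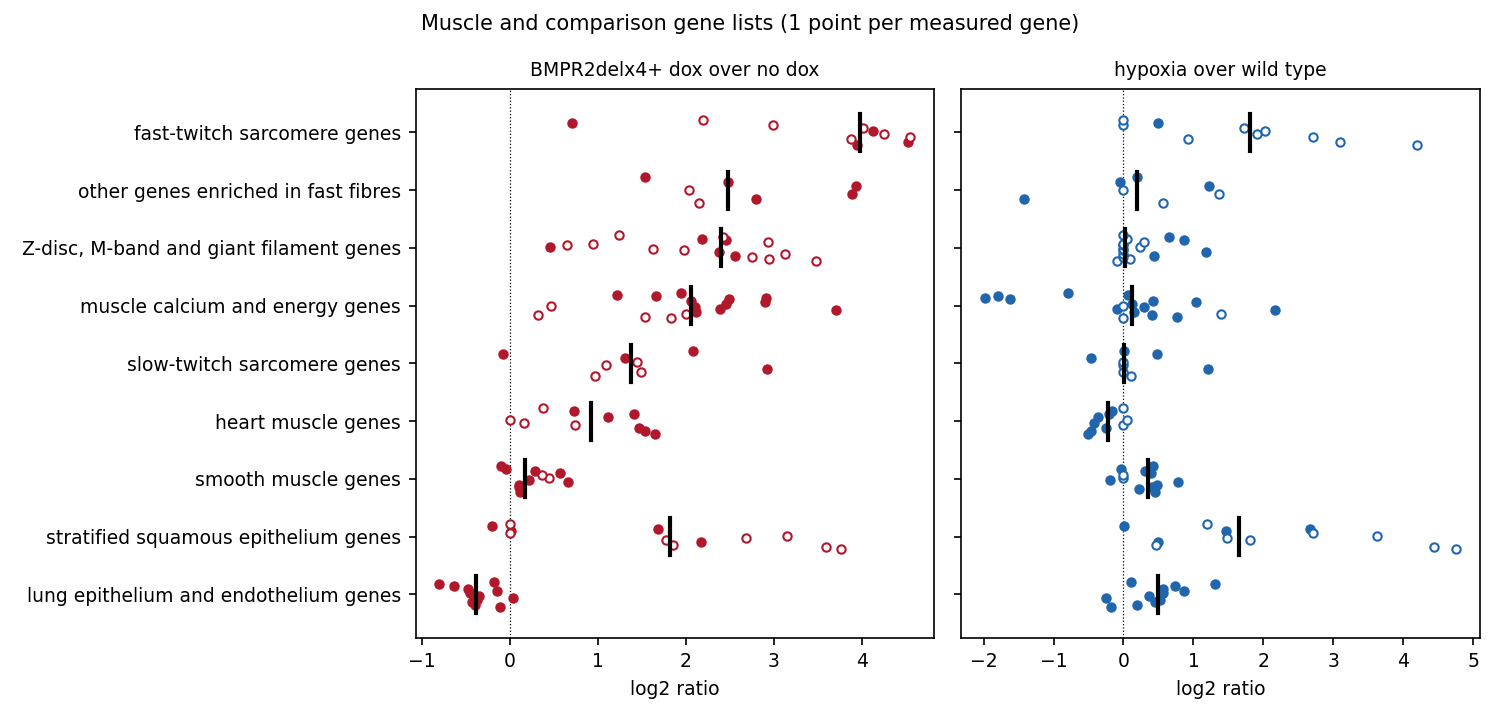
Log2 ratios of single measured genes in 9 lists, for the induced BMPR2delx4+ pool over the pool without doxycycline (left) and the hypoxic pool over wild type (right); black bars are list medians and open points have at least 1 pool at the noise floor. After induction the medians of the lists of striated muscle lie between 0.93 (heart) and 3.98 (fast-twitch sarcomere), and in hypoxia the highest medians are those of the fast-twitch sarcomere genes (1.81) and the squamous genes (1.65). These medians take in ratios that are bounds.

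Markers of stratified squamous epithelium moved in the same pools. Of 12 measured, 8 were called higher after induction (median log2 ratio 1.82) and 9 in hypoxia (1.65, or 1.85 against the transgenic mean), and their summed intensity was 18443 in the induced pool, 27590 in hypoxia, 2409 in BMPR2delx4+ without dox, 2197 in SM22-rtTA and 2756 in wild type. The keratins Krt4 and Krt13 read 3748 and 3333 in the induced pool and 7459 and 5984 in hypoxia, and were at most 74.3 in the other 3 pools. Of the basal and activated keratins, Krt5, Krt14 and Krt6a had the other order. They read 1000.4, 1331 and 1779 in the induced pool and 382, 869 and 770.5 in hypoxia. Krt15 was near level, at 948 and 971, and Krt14 was also at 615 in wild type. The members' sum was thus higher in the induced pool. That of the squamous list was higher in hypoxia, where Krt4 and Krt13 had its highest values. The lung list had a summed intensity of 64351 in the induced pool, 80079 in hypoxia, 78785 in BMPR2delx4+ without dox, 77856 in SM22-rtTA and 67897 in wild type. Its median log2 ratio was -0.39 after induction, with 0 of 12 called, and 0.49 in hypoxia. Pdpn and Pecam1 were called higher in hypoxia, at 1.82-fold and 2.47-fold above wild type. Against the transgenic mean the hypoxic median was 0.02. Pdpn was then 1.11-fold and Pecam1 1.25-fold higher, both under the fold required for a call. The part of these other tissues' markers in the muscle values was not tested.

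Likeness to the members was measured as the root mean square difference, over the 5 pools, between a gene's centred log2 values and the median of the members' (0 is an identical pattern). Values under 276 were first raised to it, so differences under the floor do not enter the measure. Non-members were measured genes, with predicted loci left out. That median was 2.97 above the mean of the pools in the induced pool and 0.57 above it in hypoxia, and lay 0.93, 1.19 and 1.19 under it in BMPR2delx4+ without dox, SM22-rtTA and wild type. Myh1 (0.11), Mylpf (0.15) and Myl1 (0.20) were the nearest members, and Acta1 (0.90) and Myh4 (1.17) the farthest, with 86 non-member genes nearer to the pattern than Myh4. The 10 non-members most like it were Atp2a1 (0.16), Ckm (0.19), Eno3 (0.25), the muscle-expressed Apobec2 (0.34), Myh8 (0.37), Myl3 (0.48), Mb (0.52), the squamous keratin Krt6a (0.55), the M-band protein Myom1 (0.58) and Cmya5 (0.63). With 5 pools the measure describes these arrays and carries no test.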

How the data were processed

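Whole-lung RNA pools of 5 conditions were measured on 1 array each, and groups were taken from the sample titles. Each probe set has 1 deposited intensity per array, on a linear scale and never under 50. How the authors summarised, background-corrected and scaled these intensities is not stated in the labels or headers read here. From these, log2 intensities were shifted so that the arrays shared a median over the 9046 probe sets that exceed each array's 50th percentile, and values below the 50th percentile of all scaled values (276) were raised to it in ratios. The platform annotation gave 20380 probe sets with 1 gene, 691 with several (not named) and 1555 with none. For 20351 of the 20380, the gene ID was found in RefSeq on GRCm38.p6, used for names and neighbours, and the symbol was taken from there. The probe set with the highest mean stood for its gene. Ratios, calls and list medians were computed with Python 3.11.15, numpy 2.4.6 and pandas 2.3.3. The calls were tested on simulated pools in which the changed genes lay well above the floor. That test did not cover ratios given as bounds, and its noise was smaller than the spread between these pools. No replicate exists, hence no test, and precision is limited by having 5 arrays. The members and lists were chosen with earlier results of these data known. Named genes were the members, the genes of the protein families, up to 4 called genes of each other list (or the 2 of highest mean) and the 10 most alike; further genes were named after their values were seen. Alternatives changed the scaling, floor, gene summary, control, fold and normal-pressure range.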

Additional observations from a re-analysis of the deposited data

Results flagged for a closer look

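For 8 of the genes named here, the values went opposite ways in the elevated-pressure pools when hypoxia was set against wild type. Each was called higher in the induced BMPR2delx4+ pool and lay under wild type in hypoxia by more than 0.34 on the log2 scale, the SD between the transgenic normal-pressure pools. None is a fast-twitch sarcomere member, and with 1 array per pool the difference was not tested. The heart and slow-fibre genes among them had log2 ratios of 1.31 and -0.46 (Tnnc1), 1.54 and -0.46 (Tnni3), 1.65 and -0.51 (Myh6), and 1.12 and -0.37 (Myl7), induction before hypoxia. Against the mean of both transgenic normal-pressure pools, their hypoxic ratios were -0.59, -0.94, -0.26 and -0.41 in that order. Fabp3, the heart and muscle fatty acid binding protein, had 1.66 and -1.79, was called in both directions, and had -0.71 in hypoxia against the transgenic mean; it was named after its values were seen. Parvalbumin (Pvalb) had 2.80 and -1.43, and the muscle and brown fat subunits of cytochrome oxidase Cox7a1 and Cox8b had 2.49 and -1.62, and 2.92 and -1.98. For these 3 genes the hypoxic ratios against the transgenic mean were -0.00, -0.07 and 0.07, so the lower hypoxic value appears only with wild type as the control. In wild type Pvalb was at 764, Cox7a1 at 943 and Cox8b at 1485, in each case above the other normal-pressure pools.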

How the results depend on the processing

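The count of members called higher after induction stayed at 10 under every alternative tried except 2-fold, where it was 9 without Myh4. In hypoxia it stayed at 7 except with the floor at the 30th percentile or at the deposited limit (8, with Actn3 added), and with the floor at the 70th percentile or at 2-fold (6, without Tnnt3). The medians depend on the floor, since most control values lie at it. After induction the median log2 ratio of 3.98 became 4.33 with the floor at the 30th percentile and also at the deposited limit (an alternative chosen after seeing the data), and 3.13 at the 70th percentile. In hypoxia the median of 1.81 became 2.88, 4.00 and 0.81 under those 3 floors in the same order, 3.28 with a pseudocount of 50 in place of the floor, and 1.24 with the mean of each gene's probe sets. That mean takes in the Myh1 probe set under the floor in every pool and the Tnni2 probe set under it in hypoxia. With it the hypoxic log2 ratio went from 1.73 to 0.77 for Myh1 and from 3.10 to 1.57 for Tnni2. Other alternatives (values as deposited, quantile normalization, other control pools) moved the medians by less than 0.34. Of 180 values of single members under the alternatives, 115 moved by less than 0.34, 65 by more, and 0 reversed a call; 1 value, of Myh4, which was not called in hypoxia, went below 0 with the mean of the transgenic normal-pressure pools as the control. Several low-intensity members have bounds in place of ratios, and no array was replicated.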
